A study of Mus musculus with 8 samples.

Results

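The 10 genes described here make and control steroid hormones in the adrenal cortex: Star, Cyp11a1, Hsd3b1, Cyp21a1, Cyp11b1, Cyp11b2, Mc2r, Mrap, Nr5a1 and Scarb1. They were chosen by gene name as a known pathway, with earlier results of these data known, and 13 of the 33026 named spots of the array carry them, among 22485 gene symbols. Star, Cyp21a1 and Scarb1 had 2 spots each and the other 7 genes had 1. The tissue was the adrenal medulla of male mice on a 129/SvJ background at 10 weeks of age, cut away from the cortex at dissection, so that the genes of a neighbouring tissue are followed here. SDHD-ESR mice were SdhD flox/- and carried the tamoxifen-inducible Cre-ER transgene, while +/- littermates were SdhD flox/- without Cre. The common reference was 1 RNA pool of 8 SdhD flox/+ mice without Cre, called +/+. All mice received tamoxifen at 100 µg/g daily for 4 days and were taken 1 week after the first injection. No source used here names the promoter of the Cre-ER transgene. On the SDHD-ESR arrays, Sdhd signal was 1.4 to 3.4% of the pool. The paper also reports a loss of the floxed allele in kidney and liver. Deletion in single cell types was not measured here. Each of the 8 arrays compared 45 ng of RNA from 2 mice (Cy5) with the +/+ pool (Cy3), 4 arrays for SDHD-ESR and 4 for +/-, and the array names divide them into 2 sets of 4 arrays (replicates 1 and 2, replicates 3 and 4) with 2 arrays of each group.

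In the cortex, ACTH from the pituitary acts on the receptor encoded by Mc2r, which needs the accessory protein encoded by Mrap to reach the cell surface, and cyclic AMP then drives the uptake and delivery of cholesterol. Scarb1 takes up cholesterol ester from high-density lipoprotein, Star carries cholesterol into the mitochondrion, and Cyp11a1 cuts its side chain to give pregnenolone. Hsd3b1, Cyp21a1 and Cyp11b1 then lead to corticosterone, Cyp11b2 makes aldosterone in the outermost zone, and Nr5a1 encodes the nuclear receptor SF-1, which turns most of these genes on. The chromaffin cells of the medulla make catecholamines instead, and glucocorticoid that reaches them from the cortex maintains adrenaline synthesis. Two-colour spots give a ratio between 2 RNAs and no level, so no gene can be called abundant or scarce from the values below. In whole tissue, fewer cells of a type and less RNA per cell cannot be told apart.

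The member genes lie on different chromosomes except for Cyp11b1 and Cyp11b2, which are neighbours on chromosome 15 (GRCm38.p6, chr15:74834892-74841643 and chr15:74850618-74856231). Promoter sequence from RefSeq (GRCm38.p6) was at hand for 2 of the members, Cyp11a1 and Hsd3b1. The 250 bases before 1 of the 2 Cyp11a1 starts and before the Hsd3b1 start are shown because both genes are classic SF-1 targets that the array could not compare. Capitals mark AGGTCA, the core half-site that SF-1 and other nuclear receptors read, searched on both strands.
Cyp11a1, chr9:58014702-58014951, plus strand: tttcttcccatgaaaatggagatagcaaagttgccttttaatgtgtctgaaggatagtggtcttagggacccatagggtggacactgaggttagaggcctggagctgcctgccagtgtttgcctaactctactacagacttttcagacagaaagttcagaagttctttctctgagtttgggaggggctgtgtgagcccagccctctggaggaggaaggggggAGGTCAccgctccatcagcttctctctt
Hsd3b1, chr3:98859795-98860044, minus strand: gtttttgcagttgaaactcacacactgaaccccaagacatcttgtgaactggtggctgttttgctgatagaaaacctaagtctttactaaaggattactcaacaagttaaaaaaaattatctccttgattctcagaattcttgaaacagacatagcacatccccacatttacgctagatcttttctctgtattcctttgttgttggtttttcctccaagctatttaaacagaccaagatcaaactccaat
The Cyp11a1 window held the hexamer once, 28 bases before the annotated start, and the Hsd3b1 window and that of the other Cyp11a1 start held none. Of all 32851 RefSeq promoter windows of this length, 14% held AGGTCA, so its presence sets no promoter apart.

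Values are log2 ratios of the sample to the +/+ pool. The deposited sign was turned, so that a positive value means more signal in the sample than in the pool. Sdhd, the deleted gene, is below the pool only after this turn, so it checks the grouping of the arrays and not the sign. It averaged -5.33 ± 0.60 in SDHD-ESR and -1.10 ± 0.84 in +/- medulla (SD, n = 4 each), a difference of -4.23 with no overlap (exact permutation p = 0.0286, the smallest that 4 against 4 arrays allow). Over the named spots with a value, the median of an array ran from -0.11 to 0.15 in SDHD-ESR and from -0.20 to 0.36 in +/-. One array needs care: in SDHD-ESR 1, 106 lines of the grid (39.8%) were displaced by 1 line and 39 (14.7%) were mixed, and its values there were left out. This removed SDHD-ESR 1 at 6 of the 13 spots. The median SDHD-ESR minus +/- difference over all 26937 tested spots was -0.05, but 0.27 within array set 1 and -0.34 within array set 2, so differences of members are also given after each array was centred on its own median.

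Most of the steroid synthesis spots carried no ratio. At 9 of the 13 (69.2%) the log2 ratio lay within 0.01 of 0 on at least 4 arrays, whichever group was hybridised, against 769 of all 33026 named spots (2.33%). Both Star spots, 1 of 2 Cyp21a1 spots, 1 of 2 Scarb1 spots and the only spots of Cyp11a1, Hsd3b1, Cyp11b1, Mrap and Nr5a1 were among them. For 6 of the 10 genes no other spot was present. Of the 67 values at these spots, 55 lay within 0.01 of 0 and 63 within 0.1. They stayed there on arrays whose medians ran from -0.20 to 0.36, in both genotypes and both array sets, and were therefore read as carrying no usable ratio, neither a change nor the lack of one. Fluorescence intensities were not used here, and why a spot stays at 0 was not tested.

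**Figure D1:**
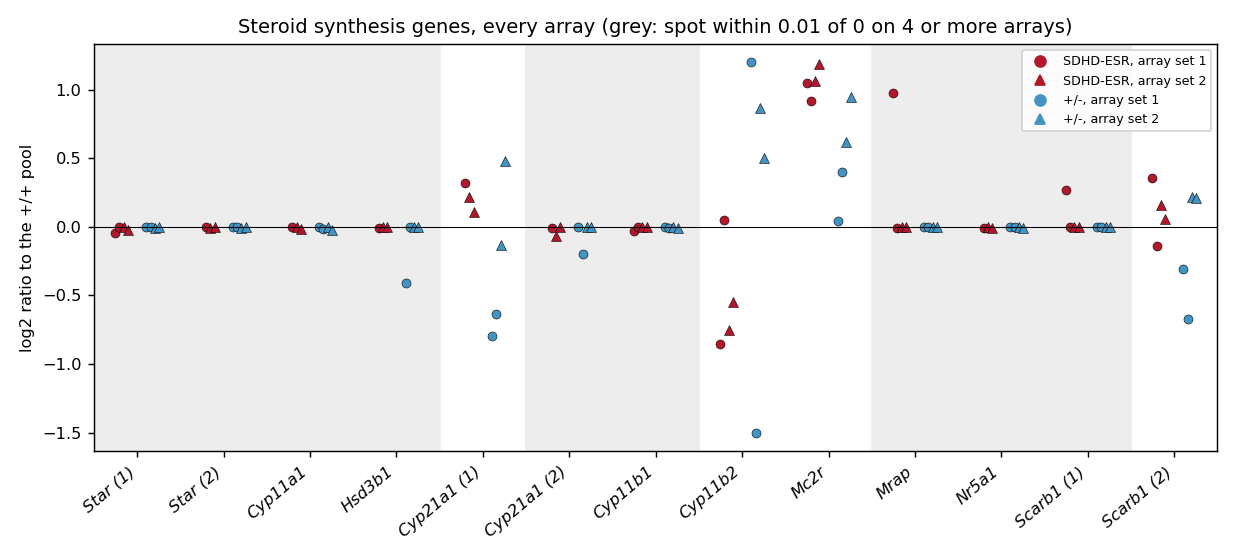
Log2 ratio to the +/+ pool (vertical axis) at each of the 13 member spots, SDHD-ESR (red) left of +/- (blue), circles for array set 1 and triangles for array set 2. Grey columns mark the 9 spots that stayed at 0, and the 4 white columns are Cyp21a1 (1), Cyp11b2, Mc2r and Scarb1 (2). Red points are missing where SDHD-ESR 1 was left out.

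Star, the carrier of cholesterol into the mitochondrion, had 2 such spots. Star spot 1 never left 0 by more than 0.046 and Star spot 2 by no more than 0.0097 on any array. Cyp11a1 stayed within 0.025 of 0, Cyp11b1 within 0.031 and Nr5a1 within 0.0084. The 4 values beyond 0.1 were single arrays. Hsd3b1 was -0.41 on +/- 1, while the other 6 values lay within 0.011 of 0. Cyp21a1 spot 2 was -0.20 on +/- 2, Mrap was 0.98 on SDHD-ESR 1 and Scarb1 spot 1 was 0.27 on SDHD-ESR 1. Each of these stood alone within its group. Mrap and Scarb1 spot 1 lie on lines of SDHD-ESR 1 that were not displaced, and of 236 spots there that were at 0 on at least 6 of the other arrays, 92.4% were within 0.05 of 0 on SDHD-ESR 1 as well, against 11% of 201 such spots on displaced lines.

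The displaced lines can be read on the members themselves. As deposited, SDHD-ESR 1 held -0.15 at Cyp11a1, 0.44 at Nr5a1 and 0.23 at Cyp21a1 spot 2. After a move by 1 line these became -0.0012, -0.0023 and 0.0012. The 3 genes therefore joined the other arrays at 0 once the line was restored. Hsd3b1, 1.98 as deposited, had no value after the move.

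Spots at 0 clustered in certain gene lists. The shares describe the lists and were not tested. Among genes around the members, 14 of 28 spots of cholesterol supply were at 0: 10 copies of Apoe, 2 of Dbi and 1 each of Tspo and Vdac1. Both Fdx1 spots were at 0, where Fdx1 is the ferredoxin that feeds electrons to Cyp11a1, Cyp11b1 and Cyp11b2. Of the zone markers of the cortex, 11 of 36 spots were at 0, 10 of them copies of Akr1b8. ACTH and angiotensin signalling had 4 of 37 and transcription factors of the cortex 1 of 31. Other steroid enzymes, which the adrenal route to corticosterone does not use, had 0 of 24. Chromaffin genes, the defining markers of the labelled tissue, had 16 of 30. These were all the spots of 7 of the 19 chromaffin genes on the array. Th, Dbh, Chga and Chgb were among the 7, so the medulla could not be checked by the ratios of its commonest markers. Ribosomal protein genes, a list added after the values were seen, had 106 of 171. Leukocyte genes had 0 of 28.

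**Figure D2:**
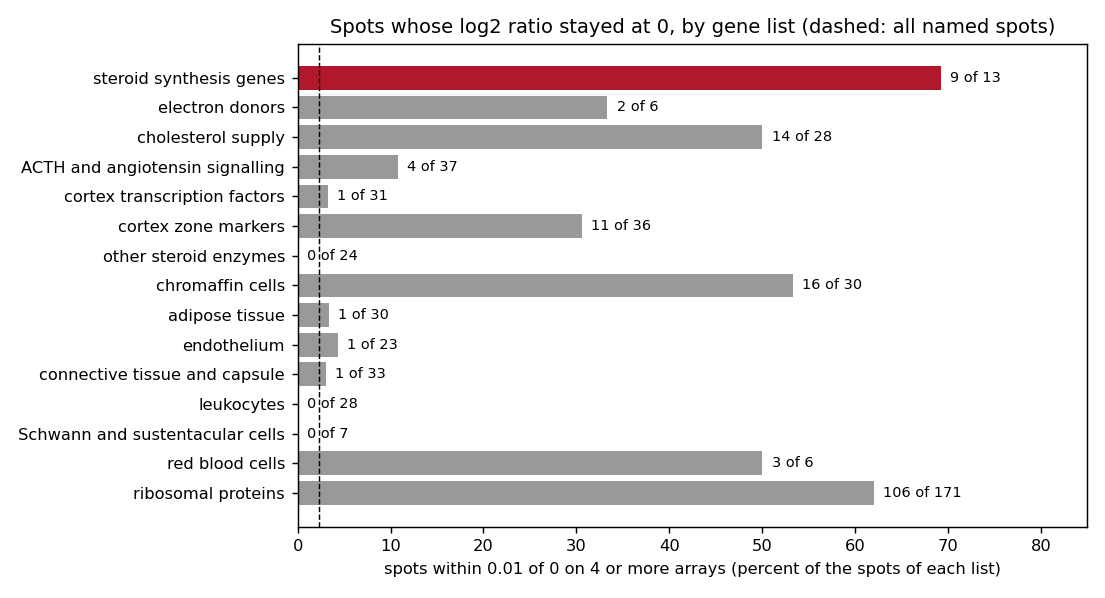
Share of spots within 0.01 of 0 on 4 or more arrays (horizontal axis, percent of the spots of each list) for 15 gene lists, with the counts beside the bars. The steroid synthesis genes (red) had 9 of 13, and the dashed line is the 2.33% of all named spots.

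Only 4 members had a spot with a measurable ratio: Mc2r, Cyp21a1, Scarb1 and Cyp11b2. No member spot differed between SDHD-ESR and +/- at an adjusted p of 0.05 (limma, Benjamini-Hochberg over 26937 spots), and neither did any other spot (0%). Sdhd itself, the deleted gene, missed that level (difference -4.23, limma unadjusted p = 3.2e-05, adjusted p = 0.219). A missed threshold therefore does not show that a gene was unchanged. At an unadjusted p of 0.05, 4.86% of all spots passed, 1.79% higher and 3.07% lower. Of the 4 members, 1 passed, Mc2r, but not without +/- 2, without SDHD-ESR 3, without SDHD-ESR 4 or within array set 2. Cyp21a1 passed that level in each fit of centred arrays, with quantile normalization and without +/- 4 (limma, adjusted p from 0.68 to 0.983 in these). Within array set 1 it had 1 SDHD-ESR array only, and the difference there was 1.04. Cyp11b2 passed it without +/- 2 (adjusted p = 0.539) and Scarb1 within array set 1 (adjusted p = 0.423).

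Mc2r, the ACTH receptor, was above the +/+ pool on all 8 arrays. Its log2 ratio was 1.05, 0.92, 1.06 and 1.19 in SDHD-ESR 1 to 4, against 0.04, 0.40, 0.62 and 0.95 in +/- 1 to 4. The SDHD-ESR arrays were close together and high, and only +/- 4 reached above the lowest of them. The means were 1.06 ± 0.11 in SDHD-ESR and 0.50 ± 0.38 in +/- (SD, n = 4 each), which are 2.08 and 1.42 times the pool. SDHD-ESR minus +/- was 0.55 (SE 0.20, 95% interval 0.09 to 1.01), 1.47-fold, with an unadjusted limma p of 0.0248, an adjusted p of 0.987 and an exact two-sided permutation p of 0.0571.

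The Mc2r difference had the same sign in both array sets, 0.77 in set 1 and 0.34 in set 2, and these came closer after centring, at 0.56 and 0.66. Centred values were 0.77 to 1.17 in SDHD-ESR and 0.24 to 0.59 in +/-, without overlap (exact permutation p = 0.0286), where 3.56% of all centred spots were higher without overlap. The centred difference was 0.61 (limma, unadjusted p = 0.00249, adjusted p = 0.576), and 6.85% of all centred spots passed at an unadjusted and 0.00371% at an adjusted p of 0.05. Against the +/+ pool, Mc2r in SDHD-ESR missed the threshold at an adjusted p of 0.072 while 0.0297% of all spots passed it, and it passed in 6 of 21 alternatives (adjusted p from 0.0185 to 0.303 over all of them), among them centring (0.0185), quantile normalization (0.0275) and moving the displaced lines back (0.0461). Under these 3 settings 2.87%, 4.83% and 0.277% of all spots passed. In +/- its adjusted p was 0.121, where 0% of spots passed, and 0.0401 with quantile normalization, where 7.49% passed. These 2 tests share the pool, which counts as 1 control sample, and they keep any dye effect since dyes were not swapped.

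Cyp21a1, the steroid 21-hydroxylase, had 1 usable spot. Its log2 ratio was 0.32, 0.22 and 0.11 in SDHD-ESR 2 to 4, with no value for SDHD-ESR 1, against -0.79, -0.64, -0.13 and 0.48 in +/- 1 to 4. The SDHD-ESR arrays lay inside the range of the +/- arrays. The means were 0.22 ± 0.11 in SDHD-ESR (SD, n = 3) and -0.27 ± 0.57 in +/- (SD, n = 4). The difference of 0.49 (SE 0.32, 95% interval -0.28 to 1.26) did not pass (unadjusted p = 0.174, exact permutation p = 0.286). It came from array set 1, at 1.04, against -0.01 in set 2, and after centring it was 0.76 and 0.31. Leaving out +/- 1 gave 0.31 and leaving out +/- 4 gave 0.74. With the displaced lines moved back SDHD-ESR 1 read 0.25 and the difference was 0.50. Its other spot, for the same accession, was among those at 0. Mouse Cyp21a1 has a close pseudogene copy, and what the probes pick up from it was not tested.

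Scarb1, the receptor for high-density lipoprotein, likewise had 1 spot at 0 and 1 with a ratio. The spot with a ratio read 0.36, -0.14, 0.16 and 0.06 in SDHD-ESR 1 to 4, against -0.31, -0.67, 0.22 and 0.21 in +/- 1 to 4. Both groups straddled 0, and the low values were the +/- arrays of set 1. The means were 0.11 ± 0.21 in SDHD-ESR and -0.14 ± 0.43 in +/- (SD, n = 4 each), a difference of 0.25 (SE 0.23, 95% interval -0.30 to 0.79, unadjusted p = 0.322, exact permutation p = 0.371). It was 0.60 in set 1 and -0.11 in set 2, and 0.39 and 0.22 after centring. Without +/- 2 it was 0.07, and without SDHD-ESR 1 it was 0.16.

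Cyp11b2, aldosterone synthase of the zona glomerulosa, had the widest spread. Its log2 ratio was -0.85, 0.05, -0.75 and -0.55 in SDHD-ESR 1 to 4, against 1.20, -1.50, 0.87 and 0.50 in +/- 1 to 4. The +/- 1, +/- 3 and +/- 4 arrays were above every SDHD-ESR array and +/- 2 was below every one. The means were -0.53 ± 0.41 in SDHD-ESR and 0.27 ± 1.21 in +/- (SD, n = 4 each), a difference of -0.79 (SE 0.58, 95% interval -2.16 to 0.57, unadjusted p = 0.214, exact permutation p = 0.257). The value rests on single +/- arrays: it was -1.38 without +/- 2 (limma, unadjusted p = 0.00211, adjusted p = 0.539) and -0.48 without +/- 1. It was -0.25 in set 1 and -1.34 in set 2, and -0.46 and -1.01 after centring. Cyp11b1 and Cyp11b2 are close paralogs, and what each probe picks up from the other transcript was not tested.

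**Figure D3:**
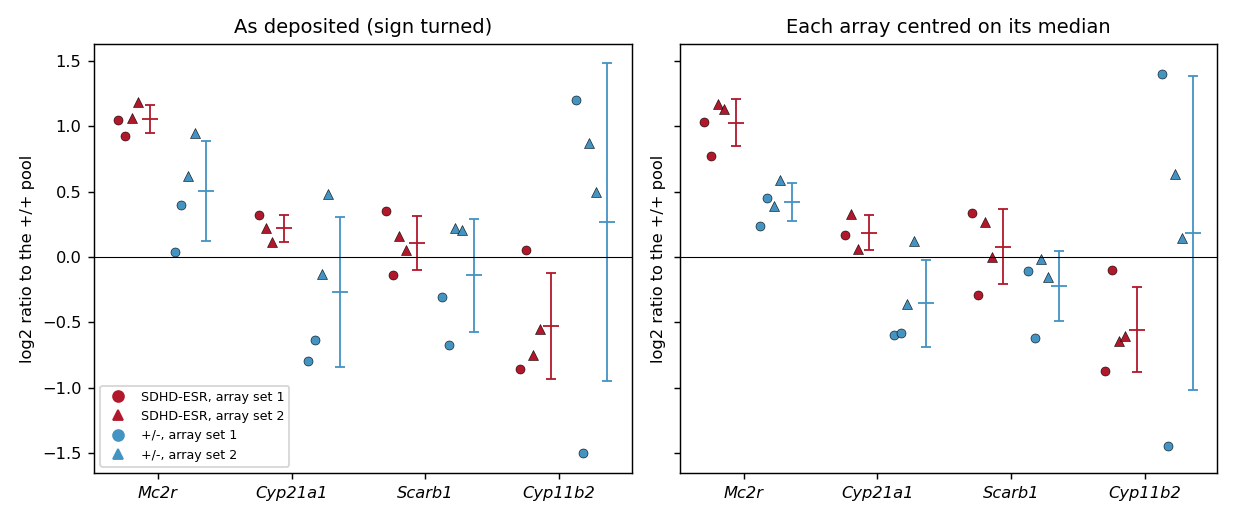
Log2 ratio to the +/+ pool of the 4 members with a usable spot, before (left panel) and after (right panel) each array was centred on its median; SDHD-ESR red and left, +/- blue and right, with mean and SD beside the points (n = 4, and n = 3 for Cyp21a1 in SDHD-ESR). Mc2r is the only gene whose groups separate after centring, at 0.77 to 1.17 against 0.24 to 0.59.

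Across the 4 members the differences were 0.55, 0.49 and 0.25 for Mc2r, Cyp21a1 and Scarb1 and -0.79 for Cyp11b2, so 3 were positive and 1 negative, with none adjusted below 0.05. The interaction of group and array set was not past the threshold for any of them (adjusted p from 0.211 to 0.602, limma), nor for any other spot (0% adjusted, 23.9% at an unadjusted p of 0.05). The unadjusted interaction p was 0.0517 for Cyp21a1 and 0.0691 for Scarb1. Over all 10 genes, the median per array was 0.14 in SDHD-ESR 1 and within 0.006 of 0 on the other 7 arrays, which reflects the spots at 0. Over the 4 spots off 0 it was 0.08 to 0.36 in SDHD-ESR and -0.65 to 0.49 in +/-. Before centring, the +/- arrays of set 1 were the low ones and those of set 2 the high ones. With arrays centred, the median read 0.06, -0.60, 0.19 and 0.13 in +/- 1 to 4, so that +/- 2 alone was below 0.

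**Figure D4:**
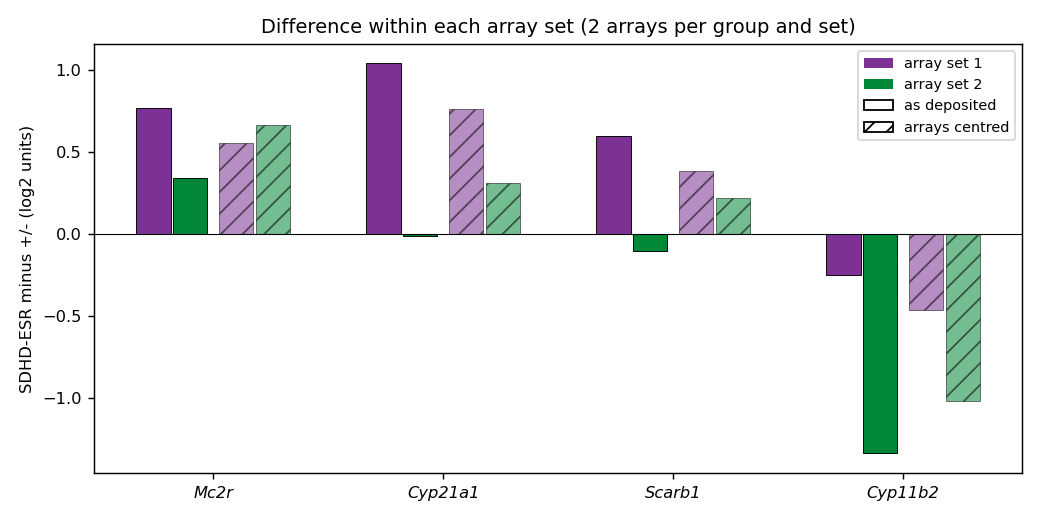
SDHD-ESR minus +/- difference in log2 units (vertical axis) of the 4 members within array set 1 (purple) and array set 2 (green), as deposited (plain) and with arrays centred (hatched); each bar compares 2 with 2 arrays, except Cyp21a1 in set 1, with 1 SDHD-ESR array. Mc2r is positive and Cyp11b2 negative in every bar, and Cyp21a1 and Scarb1 are near or below 0 in set 2 before centring only.

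The other genes of the pathway were read from lists, and no spot in them passed at an adjusted p of 0.05. Values here are differences, SDHD-ESR minus +/-, per gene with a spot off 0, and higher or lower in a count of genes gives the sign of the difference only. As a background, 58.5% of all such spots were below 0. The 2 array sets differed in sign for most lists, as they did for all spots together (0.27 and -0.34), so each list's median is also given by set. Electron donors had 2 genes higher and 1 lower of 3 (median 0.06, 0.34 in set 1 and -0.29 in set 2), with Cyb5r3, the cytochrome b5 reductase, at 0.26 and 0.01 at its 2 spots, Cyb5a, cytochrome b5, at 0.06 and H6pd, which makes NADPH in the endoplasmic reticulum, at -0.11. None of the 3 passed at an unadjusted p of 0.05.

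Cholesterol supply had 3 genes higher and 8 lower of 11 (median -0.06, 0.41 in set 1 and -0.48 in set 2), and 1 of them passed at an unadjusted p of 0.05. This was Abcg1, a cholesterol exporter, at -0.74, 0.10, -0.31 and -0.21 in SDHD-ESR 1 to 4, against 0.24, 0.40, 0.31 and 0.13 in +/- 1 to 4. Before centring the groups did not overlap, as for 1.95% of all spots in the lower direction, and the difference was -0.56 (SE 0.18, limma unadjusted p = 0.0177, adjusted p = 0.987). With arrays centred they overlapped, since +/- 4 then lay below SDHD-ESR 2. The difference was -0.64 in set 1 and -0.48 in set 2, and -0.85 and -0.16 after centring. Stard4, a cytosolic cholesterol carrier, was at 0.22 and 0.65 at its 2 spots and Npc2, which moves cholesterol out of lysosomes, at -0.32.

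ACTH and angiotensin signalling had 4 genes higher and 15 lower of 19 (median -0.16, 0.06 in set 1 and -0.27 in set 2), and 1 passed at an unadjusted p of 0.05. This was Kcnk9, a background potassium channel of glomerulosa cells, at -0.43 (SE 0.18, limma unadjusted p = 0.0495). Mrap2, a paralog of Mrap, was at -0.37, -1.69 and -0.58 at its 3 spots and the adenylyl cyclase Adcy5 at -0.76, -0.98 and 0.08. Transcription factors had 5 higher and 10 lower of 15 (median -0.14, 0.31 in set 1 and -0.42 in set 2). Nr1h3, the oxysterol receptor LXR alpha, was the only one to pass at an unadjusted p of 0.05, at both of its spots (-0.65, limma p = 0.0237, and -0.54, limma p = 0.0490, each with an exact permutation p of 0.0571 and an adjusted p of 0.987). Dlx5 was at 1.00 and Cebpb at 0.46. Nr0b1, the DAX-1 repressor of SF-1, had 10 spots, between -0.30 and -0.01, with a median of 0.41 in set 1 and -0.67 in set 2 (0.20 and -0.35 after centring).

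Zone markers of the cortex had 1 gene higher and 12 lower of 13 (median -0.46), but the sets differed. In set 1, 9 of the 13 were above 0 (median 0.36), and in set 2, 1 was (median -0.72). After centring the medians were 0.15 and -0.40. In the fit over both sets 1 gene passed in each direction at an unadjusted p of 0.05. Shh, the ligand of progenitor cells in the outer cortex, was below +/- at all 10 of its spots, which are copies for 1 accession and share their RNA, so they are not 10 measurements. SDHD-ESR 1 had a value at 3 of them and was left out at 7. The median over the spots was -1.56, 0.11, -1.23 and -0.71 in SDHD-ESR 1 to 4, against 0.57, 0.23, 0.91 and 0.45 in +/- 1 to 4. In these medians all SDHD-ESR arrays were below all +/- arrays. Taken singly, 7 of the 10 spots had no overlap, as for 1.95% of all spots in the lower direction. Most of these 7 lack SDHD-ESR 1 and compare 3 with 4 arrays. Among the 3 spots with SDHD-ESR 1, groups overlapped where SDHD-ESR 2 read 0.16 against -0.04 in +/- 2, and where it read 0.2709 against 0.2704. The difference of spots ran from -1.48 to -0.92 and the unadjusted limma p from 0.00439 to 0.0483, with an adjusted p of 0.987. In set 1, the 3 spots with both SDHD-ESR arrays gave -1.25 to -0.88 and the 7 that rest on SDHD-ESR 2 alone gave -0.56 to 0.01. After centring these were -1.47 to -1.10 and -0.84 to -0.27. In set 2 the median over the spots was -1.68, and -1.36 after centring.

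Cyp2f2, a marker of the inner cortex, was the 1 zone marker above 0, at 1.71 (SE 0.59, unadjusted limma p = 0.0258, adjusted p = 0.987, exact permutation p = 0.114). It was 2.73, 0.32 and 1.97 in SDHD-ESR 2 to 4 and -0.63, 0.01, 0.53 and -0.05 in +/- 1 to 4, so that SDHD-ESR 3 fell within the +/- range. Wnt4, which acts in the zona glomerulosa, was at -0.62 (exact permutation p = 0.171). Among the other steroid enzymes, 3 were higher and 6 lower of 9 (median -0.10, 0.22 in set 1 and -0.33 in set 2). Hsd17b3, which makes testosterone in the testis, was at 1.22 (unadjusted limma p = 0.0384, exact permutation p = 0.171), Cyp27a1, a mitochondrial sterol hydroxylase, was below +/- at all 10 of its spots with 1 at an unadjusted p of 0.05 (-0.84, limma p = 0.0251), and Hsd3b2 was at -0.43.

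**Figure D5:**
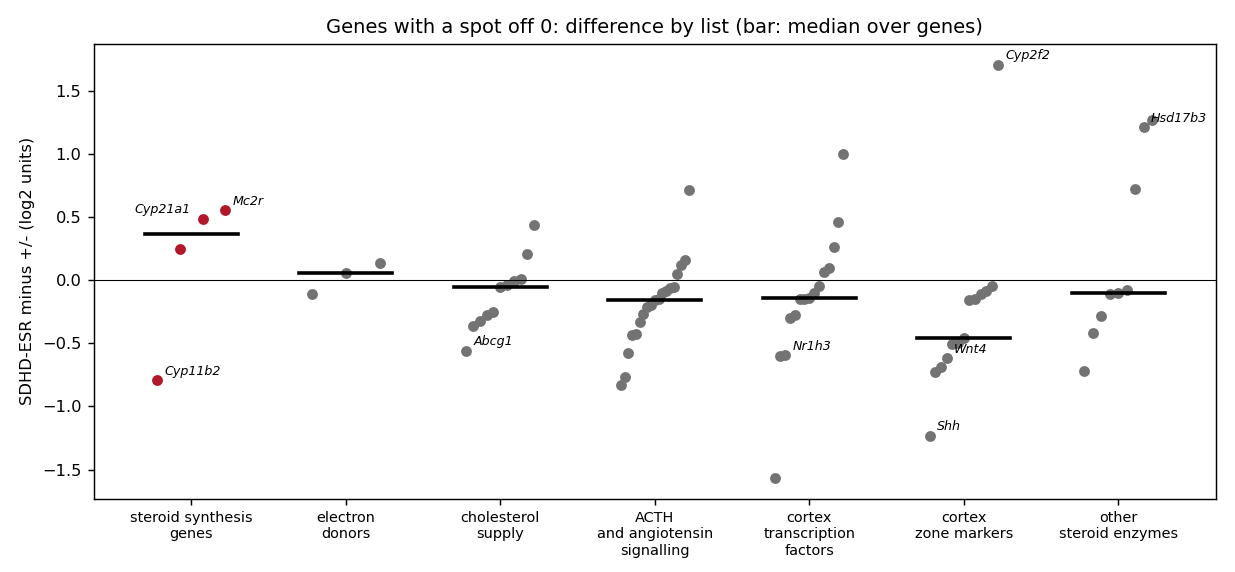
SDHD-ESR minus +/- difference in log2 units (vertical axis) for each gene with a spot off 0 (points, median over its spots) in 7 lists of the steroid pathway, with the median over genes (bar). The 4 steroid synthesis genes (red) have a median of 0.37 and the zone markers -0.46, with Shh lowest and Cyp2f2 highest among the named.

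Marker lists of other cell types are given beside these values, again as counts above and below 0. Spots of the same gene share their RNA and are not separate measurements. A gene passed an unadjusted p of 0.05 (limma) if any of its spots did, where 3.07% of all spots passed in the lower direction. In that direction 2 adipose genes (2 of 29 spots), 1 endothelial gene (1 of 22) and 0 chromaffin genes (0 of 14) passed. Leukocyte genes had 1 gene higher and 13 lower of 14 (median -0.52, -0.24 in set 1 and -0.80 in set 2). Of the lower genes, 8 passed at an unadjusted p of 0.05 (16 of 27 spots, where C1qc alone has 10 of the 27). The median of the list ran from -0.69 to -0.35 in SDHD-ESR and from -0.21 to 0.24 in +/-. Connective tissue and capsule genes had 13 lower of 13 (median -0.60, -0.16 in set 1 and -0.83 in set 2). Of these, 6 passed at an unadjusted p of 0.05 (8 of 32 spots, where Acta2 and Pdgfra have 10 each). The medians of this list were -0.55 to 0.26 in SDHD-ESR and 0.20 to 0.73 in +/-. Adipose genes had 9 lower of 9 (median -1.34), with medians of -3.39 to 0.66 in SDHD-ESR and -1.96 to 1.24 in +/-. The sets opposed each other here, with 7 of the 9 above 0 in set 1 (median 0.50) and 1 of 9 in set 2 (median -3.74). Endothelial genes had 11 lower of 11 (median -0.29, 0.01 in set 1 and -0.65 in set 2), with medians of -0.25 to 0.30 in SDHD-ESR and 0.27 to 0.35 in +/-. Chromaffin genes off 0 had 2 higher and 10 lower of 12 (median -0.30, -0.21 in set 1 and -0.34 in set 2), with medians of -0.45 to 0.39 in SDHD-ESR and 0.28 to 0.77 in +/-. Their part in the values of Mc2r, Shh and the other cortical genes was not tested.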

How the data were processed

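Two-colour Agilent arrays of adrenal medulla were scanned by the authors, who deposited 1 value per spot. The column mixes log ratios of Cy5 to Cy3 with whole numbers far outside the range of a log ratio, so the deposited values are named a score here. No source used here says how background and dye effects were handled. The base of the logarithm was taken as 2, the base by which the study's log ratios of SdhD and its percentages of SdhD mRNA match each other. Deposited rows carry a running number only. Names were placed through the geometry of the grid, with a layout taken over from an earlier analysis of this series. Whole numbers were dropped and the sign was turned. SDHD-ESR 1 was set to missing on grid lines that did not correlate with the other arrays in place.

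Spots with a symbol and at least 3 values in each group (26937) were fitted in limma 3.58.1 (lmFit, eBayes, R 4.3.3) with a mean per group and p adjusted by Benjamini-Hochberg over all of them. Exact two-sided permutation tests over arrays used scipy 1.17.1, and tables used Python 3.11.15, numpy 2.4.6, pandas 2.3.3 and matplotlib 3.10.9. The fit was tested on simulated data. The number of arrays limits the precision. Each array pools 2 mice, so p-values measure the spread between such pools.

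The members and gene lists were chosen with earlier results of these data known. Every member spot is described. Of each further list, counts are given and up to 3 genes with the smallest p are named for the steroid pathway. Genes of other cell types are given as lists only. Alternatives were centring, quantile normalization, other treatments of SDHD-ESR 1 and of whole numbers, other filters, blocks, robust eBayes, the methods' t-test and leaving out each array. Kidney arrays were not analysed here.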

Additional observations from a re-analysis of the deposited data

Results flagged for a closer look

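In groups with 4 values, a single array was set apart from the other 3 in 6 of 20 cases, where chance gives about 1 in 20, and all 6 were at spots that otherwise stayed at 0, so that a small departure stands out. Hsd3b1 was -0.411 on +/- 1. Cyp21a1 spot 2 was -0.199 on +/- 2. On SDHD-ESR 1, Mrap was 0.979, Scarb1 spot 1 was 0.268 and Cyp11b1 was -0.0313. Mrap on +/- 3 was -0.00272, which is still within 0.01 of 0. The 3 spots on SDHD-ESR 1 lie on grid lines that were not displaced, and their values were the same as deposited and after the displaced lines were moved back.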

How the results depend on the processing

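No alternative brought a member with a spot off 0 past an adjusted p of 0.05 between SDHD-ESR and +/-, and the sign of the Mc2r difference (0.34 to 0.77) and of the Cyp11b2 difference (-1.38 to -0.25) held in all 24 alternatives of each. Within array set 2, Cyp21a1 turned to -0.0095 and Scarb1 to -0.106; the cause was not tested. Against the pool, Scarb1 turned to -0.0071 in SDHD-ESR when SDHD-ESR 1 was left out and arrays were centred. With 1 array left out, the +/- mean ran from -0.044 to 0.86 for Cyp11b2 and from -0.26 to 0.040 for Scarb1. The median over the members, taken per array and averaged by group, differed by 0.036 between groups, and by 0.17 when spots at 0 were left out. This is not the median of the differences per gene, which was 0.37 over the 4 members with a spot off 0.

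Between SDHD-ESR and +/-, 0 spots passed at an adjusted p of 0.05 (1310 unadjusted; 0 and 1043 by the methods' t-test), 1 with centring and 1 with centring on spots present on all arrays. Among unadjusted calls 36.8% were higher as deposited and 49.8% with centring. Unadjusted calls numbered 2277 without SDHD-ESR 2, 855 without +/- 3, 618 over spots with all 8 values and 1968 with quantile normalization. For SDHD-ESR against the pool, 8 spots passed, but 773 with centring, 816 with centring on spots present on all arrays, 1301 with quantile normalization, 527 with centring and the array set as a block, 77 with displaced lines moved back, 49 over spots with all 8 values, 3 with SDHD-ESR 1 left out and arrays centred, 2 with the array set as a block, 1 with a minimum of 2 values and 0 to 3 with 1 array left out. For +/- against the pool, 0 passed, 2018 with quantile normalization and 0 to 2 with 1 array left out. The 2 alternatives that leave out SDHD-ESR 1 with centring, or centre on spots present on all arrays, were chosen after seeing the data.

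Same-numbered arrays of the 2 groups deviated together with r of 0.13, 0.14, -0.017 and 0.019. The +/- array closest in these deviations had the same number for SDHD-ESR 1 and 2, and another number for SDHD-ESR 3 and 4. The values do not settle whether the numbers pair the arrays. With a replicate block the count for SDHD-ESR against the pool was 1, that between the groups stayed at 0, and the Cyp21a1 difference was 0.31. Signal over background was not available from the values used, so depth cannot be judged.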

Other observations

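Over the 8 arrays, the 5 genes whose log2 ratios ran closest to the median of the 4 member spots off 0, among 10157 other spots with every value, were Yy1, Gm4459, Hprt, Fam162a and Grpel2 (Pearson r 0.97 to 0.98). The arrays share the pool and the array-wide shifts, and none of the 5 differed between SDHD-ESR and +/- at an unadjusted p of 0.05. The restriction to spots off 0 was made after the values were seen, because the median over all 10 members is set by SDHD-ESR 1 alone. With that median the closest were Rpl7a, Uqcrc2, Med29, Olfr181 and Gm2531 (r 0.99 to 1.00).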
